A study of Mus musculus with 6 samples.

Results

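The U4/U6.U5 tri-snRNP is a large preassembled part of the spliceosome, the machine that removes introns from pre-messenger RNA. It carries the U4, U5 and U6 small nuclear RNAs into the assembling spliceosome, where U4 is then stripped from U6 so that U6 can enter the catalytic centre. PRPF6 bridges the U5 particle and the U4/U6 particle, and inherited variants in several of its partner proteins are known as causes of retinitis pigmentosa or of craniofacial disorders with microcephaly. Described here are 10 genes for tri-snRNP proteins around PRPF6, taken by symbol from a table of 24041 genes. All 10 were found, and all 10 passed the filter on low counts.

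The messenger RNA came from cells of mouse cerebral cortex that had taken up plasmid DNA by electroporation and were then sorted for its marker, green fluorescent protein (GFP). Beside GFP, 3 libraries had been given mutant PRPF6 and 3 libraries wild-type PRPF6. Every library therefore carried added PRPF6, and no library without it was analysed here. The sources used here do not give the change in the mutant, the species and promoter of the PRPF6 plasmid, or the strain and age of the mice. Nor do they say whether libraries came from separate animals, so p-values measure the spread among 6 libraries, some of which may be technical.

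Library totals lay between 45115114 and 60600621 expected counts, and 1 count was worth 0.0164 to 0.0228 CPM (counts scaled to the same total in each library). Cortical markers were present in every library, among them Pax6 of radial glia and Neurod2 and Tbr1 of excitatory neurons. The mix of markers differed between libraries. Mutant replicate 1 was least like the rest, with Spearman correlations of 0.922 to 0.939 to them, against 0.945 to 0.97 among the other libraries. It held the highest radial glia sum, 5195 CPM, and the lowest neuron sum, 1927 CPM, of the lists that follow. Mutant replicate 3 came next in both sums, at 4056 and 2443 CPM. The 12 radial glia markers summed to 2797 to 5195 CPM in mutant and 1967 to 2763 CPM in wild-type libraries, with 12 of 12 fitted higher with mutant PRPF6 and 6 of them at an unadjusted p under 0.05. The 12 neuron markers summed to 1927 to 3593 CPM in mutant and 3564 to 4679 CPM in wild-type libraries, which overlap. Of these markers 12 of 12 were fitted lower, 6 at an unadjusted p under 0.05. Over all tested genes 2.18% were higher and 1.2% lower at an unadjusted edgeR p under 0.05. No marker of these 2 lists passed the edgeR test once adjusted over all tested genes. The 8 red blood cell genes summed to 63.8 to 1220 CPM in mutant and 749.6 to 13174 CPM in wild-type libraries, where wild-type replicate 3 stood apart, and 8 of 8 were fitted lower. In that library the 7 meningeal fibroblast genes also summed to 1650 CPM, against 15.4 to 167 CPM in mutant and 125 to 132 CPM in the other wild-type libraries, with 7 of 7 fitted lower. No list was at 0, although single genes such as Hbb-bs and Cdh5 had no counts in at least 1 library. In sorted cells taken in bulk, a change in the share of a cell type cannot be told apart from a change in RNA per cell. The part of these marker differences in the values below was not tested.

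Short stretches of DNA before the starts of Prpf6, Snrnp200 and Prpf3 are shown, because Prpf6 is the gene added in both groups and the other 2 were the members whose mutant and wild-type libraries did not overlap. They come from RefSeq on GRCm38.p6, read 5′ to 3′ on the strand of the gene, and end at the base before the RefSeq start. For Snrnp200 and Prpf3 that start is also the start of the gene in GENCODE M21. For Prpf6 it lies 9451 bases inside the GENCODE gene, whose span is given with its values, and 3 bases of the stretch are annotated as Prpf6 exon. Capitals mark GGGCGGG or its reverse complement (an SP1 motif) and CCGGAAG (an ETS motif).
Prpf6, chr2:181601169-181601318, plus strand: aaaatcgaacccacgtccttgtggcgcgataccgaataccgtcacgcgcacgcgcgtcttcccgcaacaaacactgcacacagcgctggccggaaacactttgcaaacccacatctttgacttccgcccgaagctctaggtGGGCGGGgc
Snrnp200, chr2:127208281-127208385, plus strand: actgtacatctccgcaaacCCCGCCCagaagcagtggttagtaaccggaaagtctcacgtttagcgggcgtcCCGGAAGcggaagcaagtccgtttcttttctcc
Prpf3, chr3:95855886-95855965, minus strand: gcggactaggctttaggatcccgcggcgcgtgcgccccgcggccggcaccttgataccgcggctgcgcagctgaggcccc

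Of the 10 genes 7 had a RefSeq promoter, in 8 windows because Prpf3 has 2 annotated starts. In the 250 bases before a start, searched on both strands, Snrnp200 held the ETS motif CCGGAAG 33 bases and the SP1 motif GGGCGGG 86 bases before it. Prpf6 held the SP1 motif 9 bases before its start. The first Prpf3 window held neither, and the window of its other start held the ETS motif and the E-box CACGTG. The windows of Prpf4, Prpf8, Prpf31 and Sart1 held none of the motifs searched, which also included AAGATGGCG for YY1, TGACGTCA for CREB and TATAAA for the TATA box, with no overlap between the matches found. Among 27025 mouse promoters of the same length, 7.05% held the ETS motif, 23.6% the SP1 motif and 6.05% the E-box. The shares were 0.607% for the YY1 motif, 1.62% for the CREB motif and 13.0% for the TATA box. A match is a run of letters, not a binding site.

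The single comparison in the design asks which transcripts differ between cells given mutant and wild-type PRPF6. None of the 10 genes passed the edgeR quasi-likelihood test, adjusted by Benjamini-Hochberg over all 14451 tested genes, of which 0% passed (adjusted p = 1.00 for each member). DESeq2 called 0.309% of the 3238 genes to which it gave an adjusted p, and no member among them. Snrnp200 and Prpf3 were the members with the largest log2 differences, 0.58 and 0.64, and in both every mutant library lay above every wild-type library. For comparison, 4.6% of all tested genes had all mutant libraries above all wild-type libraries and 4.54% had all below. At an unadjusted p under 0.05 stood the same 2 members, both higher, against 2.18% of all tested genes higher and 1.2% lower. Fitted differences were above 0 in 7 members and below 0 in 3, with a median of 0.071, against 49.8% above 0 and a median of −0.0013 over all tested genes. With 1 library left out at a time the number of members above 0 ran from 5, without mutant replicate 3 or wild-type replicate 3, to 9, without wild-type replicate 1.

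**Figure D1:**
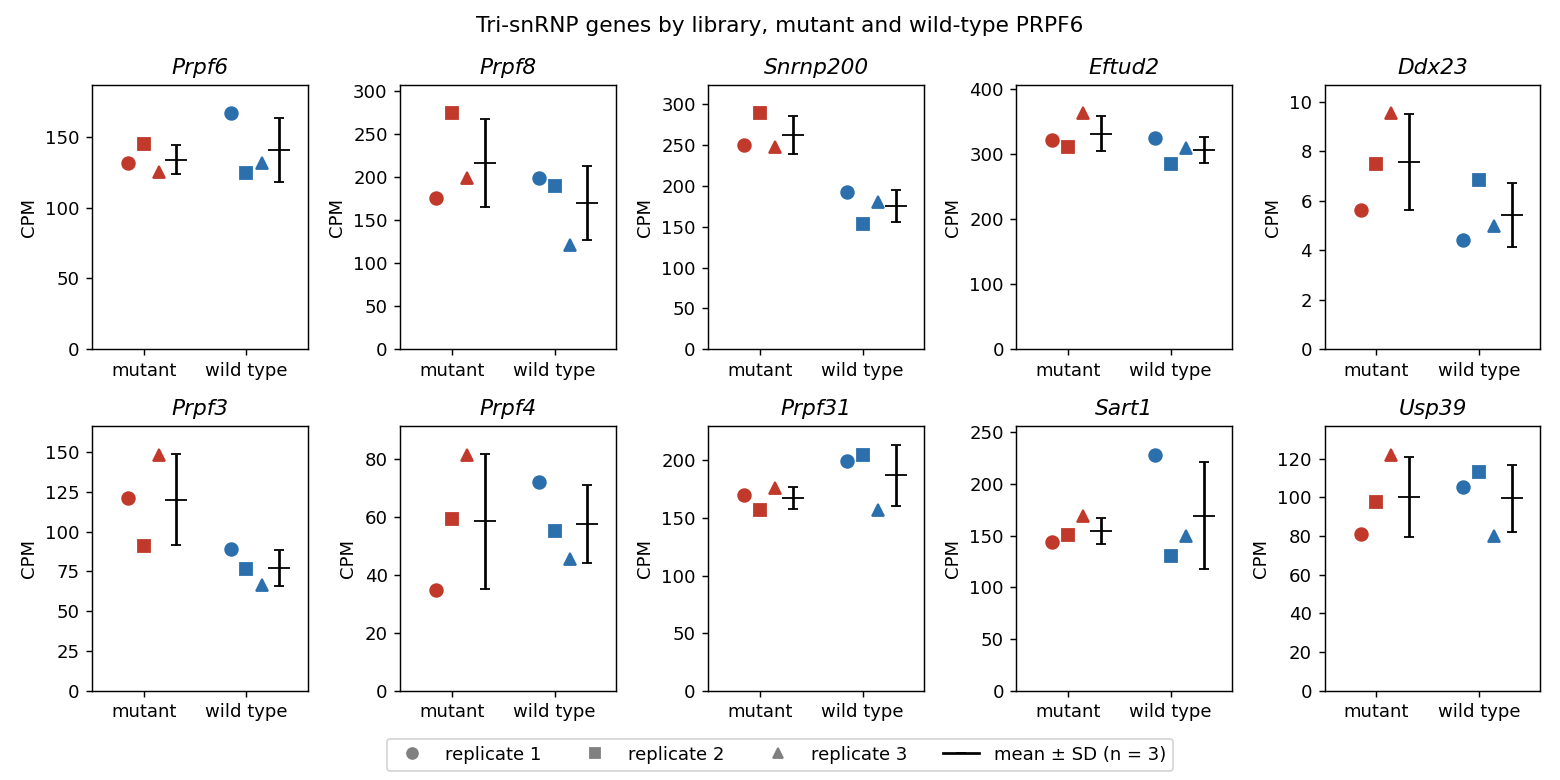
Level of each of the 10 genes in CPM (y axes from 0, one panel per gene) in mutant (red, left) and wild-type (blue, right) PRPF6 libraries. Symbols give the replicate and black bars the mean ± SD of 3 libraries. The groups are apart for Snrnp200 and Prpf3 and overlap for the other 8 genes.

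Prpf6 itself (chromosome 2, 181591868 to 181655660, plus strand, GRCm38) did not separate the groups. Its level was 131, 145 and 125 CPM in mutant replicates 1, 2 and 3, against 166, 124 and 132 CPM in wild-type replicates 1, 2 and 3. Wild-type replicate 1 was the highest library, and the remaining 5 lay within the narrow span of 124 to 145 CPM. The means were 134 ± 10.01 CPM with mutant and 141 ± 22.6 CPM with wild-type PRPF6 (SD, n = 3 each). The log2 difference was −0.073 ± 0.17 (SE; edgeR adjusted p = 1.00), and without wild-type replicate 1 it was 0.067. Whether these counts hold reads from the plasmids was not tested, so they do not show how much PRPF6 was added in either group.

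Among the U5 proteins, Snrnp200 (chromosome 2, 127208386 to 127240451, plus strand) encodes the helicase, Brr2 in yeast, that unwinds U4 from U6. It stood at 250.2, 288 and 248 CPM in mutant libraries, against 192, 153 and 180.2 CPM in wild-type libraries. The lowest mutant library was above the highest wild-type library. The means of 262 ± 22.8 CPM with mutant and 175 ± 20.01 CPM with wild-type PRPF6 (SD, n = 3 each) gave a log2 difference of 0.58 ± 0.15 (SE; edgeR unadjusted p = 0.00476, adjusted p = 1.00). With 1 library left out the difference stayed between 0.49 and 0.65, and the unadjusted p was under 0.05 in all 6 of these fits. Across all settings the lowest adjusted p was 0.15, from DESeq2. Radial glia markers were fitted higher and neuron markers fitted lower with mutant PRPF6, as given above, but not evenly over the mutant libraries. Mutant replicate 2, the highest for Snrnp200, had a radial glia sum of 2797 CPM and a neuron sum of 3593 CPM. Wild-type replicate 2, the lowest for Snrnp200, had 2763 and 3564 CPM. The part of these markers in the Snrnp200 difference was not tested.

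Prpf8 (chromosome 11, 75486816 to 75509449, plus strand) encodes the large scaffold protein that encloses the catalytic RNAs. Its levels were 176, 275 and 199 CPM in mutant libraries, against 199, 189.8 and 121 CPM in wild-type libraries. Mutant replicate 2 was high and wild-type replicate 3 low, while the other 4 libraries lay close together, so that the groups overlapped. The log2 difference was 0.35 ± 0.24 (SE; edgeR adjusted p = 1.00), and without mutant replicate 2 it was 0.14.

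Eftud2 (chromosome 11, 102838473 to 102880985, minus strand) encodes the U5 GTPase that works with PRPF8 and SNRNP200 during activation. It was at 321, 309.6 and 362 CPM in mutant libraries, against 324, 284 and 308 CPM in wild-type libraries. The groups overlapped, and this was the steadiest member, with the highest library 1.27 times the lowest. The log2 difference was 0.12 ± 0.14 (SE). Its exons share 2261 bases with the antisense gene Gm26668 in GENCODE M21, a symbol that is not among the deposited genes. Without a known strand setting reads from both cannot be separated.

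Ddx23 (chromosome 15, 98645134 to 98662894, minus strand) encodes the helicase, Prp28 in yeast, that displaces U1 from the start of the intron. It was listed far below the other members, at 5.65, 7.50 and 9.53 CPM in mutant libraries, against 4.43, 6.86 and 4.997 CPM in wild-type libraries. These values rest on 328, 373 and 418 counts in mutant and 206, 418 and 250 counts in wild-type libraries, whereas every other member had at least 2026 counts in every library. The groups overlapped, and the log2 difference of 0.48 ± 0.55 (SE) was smaller than its error. No exon of another annotated gene overlaps its exons. Whether the annotation behind the deposited counts covers the whole gene is not known, so its true level may be higher.

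Prpf3, Prpf4 and Prpf31 encode proteins of U4/U6, and none of these genes passed the test. Prpf3 (chromosome 3, 95830124 to 95855885, minus strand) and Prpf4 (chromosome 4, 62408797 to 62426990, plus strand) encode partner proteins that bind each other on the U4/U6 duplex. Prpf3 was at 121, 90.9 and 148 CPM in mutant libraries, against 88.9, 76.4 and 66.2 CPM in wild-type libraries. The groups were apart, but mutant replicate 2 was only just above wild-type replicate 1. The means were 120.1 ± 28.8 CPM with mutant and 77.2 ± 11.3 CPM with wild-type PRPF6 (SD, n = 3 each), with a log2 difference of 0.64 ± 0.22 (SE; edgeR unadjusted p = 0.0196, adjusted p = 1.00). The unadjusted p was under 0.05 in 3 of the 6 fits with 1 library left out. It was 0.079 without mutant replicate 3, 0.052 without wild-type replicate 2 and 0.065 without wild-type replicate 3. The difference itself ran from 0.46, without mutant replicate 3, to 0.80, without mutant replicate 2. The part of the radial glia and neuron markers in the Prpf3 difference was not tested either.

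Prpf4 showed a wide spread within the mutant group, at 34.9, 59.2 and 81.6 CPM, against 72.0, 55.0 and 45.6 CPM in wild-type libraries. Mutant replicate 1 was the lowest and mutant replicate 3 the highest of all 6, so the wild-type values lay inside the mutant range. The log2 difference was 0.025 ± 0.32 (SE; edgeR adjusted p = 1.00). It was −0.29 without mutant replicate 3 and 0.29 without mutant replicate 1. The ratio of Prpf3 to Prpf4 CPM was 3.46, 1.53 and 1.82 in mutant libraries, against 1.23, 1.39 and 1.45 in wild-type libraries. Mutant replicate 1 had the highest ratio, and in that library Prpf3 lay above and Prpf4 below the range of the wild-type libraries.

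Prpf31 (chromosome 7, 3629985 to 3642486, plus strand) encodes the protein that clamps the U4 RNA and is a known retinitis pigmentosa gene. It was at 169.7, 157 and 176 CPM in mutant libraries, against 199.6, 205 and 157 CPM in wild-type libraries. Wild-type replicate 3 matched the lowest mutant library, so the groups overlapped, and the log2 difference was −0.16 ± 0.16 (SE; edgeR adjusted p = 1.00). Prpf31 was the member with the largest fitted difference below 0, and the sign stayed the same in every setting. Its exons share 984 bases with the antisense gene Gm15927, a symbol that is not among the deposited genes. The ratio of Prpf31 to Prpf3 CPM was 1.40, 1.73 and 1.18 in mutant libraries, against 2.25, 2.69 and 2.37 in wild-type libraries. In this ratio the groups were apart, with every mutant library lower, and Prpf3 alone already separated them.

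The 5 ratios computed were chosen after member values were seen, so they are described without a test. Within U5 the Snrnp200 to Prpf8 ratio was 1.05 to 1.42 in mutant and 0.806 to 1.49 in wild-type libraries, and the Eftud2 to Prpf8 ratio 1.13 to 1.82 in mutant and 1.498 to 2.54 in wild-type libraries. The Prpf6 to Prpf8 ratio was 0.527 to 0.746 in mutant and 0.653 to 1.08 in wild-type libraries. All 3 overlapped between groups. Both ratios with Prpf3 did not, but Prpf3 alone already separated the groups, so they are not a separate result. How often ratios of other gene pairs separate the groups was not computed.

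The remaining members help the particle join or stay together. Sart1 (chromosome 19, 5377523 to 5388703, minus strand), Snu66 in yeast, links U5 with U4/U6. It was at 144, 151 and 169 CPM in mutant libraries, against 228, 129.99 and 149.6 CPM in wild-type libraries. A single library, wild-type replicate 1, stood above the rest, and without it the log2 difference of −0.13 ± 0.22 (SE) became 0.15. Sart1 was the 1 member with values that were not whole, in 5 of 6 libraries, so its counts depend on how reads shared with another gene were divided. Which gene that is was not determined. The exons of Sart1 share 368 bases with the antisense gene AC122861.4, but that symbol is not among the deposited genes. Usp39 (chromosome 6, 72318678 to 72345184, minus strand), Sad1 in yeast, resembles a ubiquitin protease and is needed for tri-snRNP assembly. It was at 81.0, 97.6 and 122 CPM in mutant libraries, against 105, 113 and 80.1 CPM in wild-type libraries. The groups covered nearly the same span, and the log2 difference was 0.011 ± 0.21 (SE; edgeR adjusted p = 1.00).

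**Figure D2:**
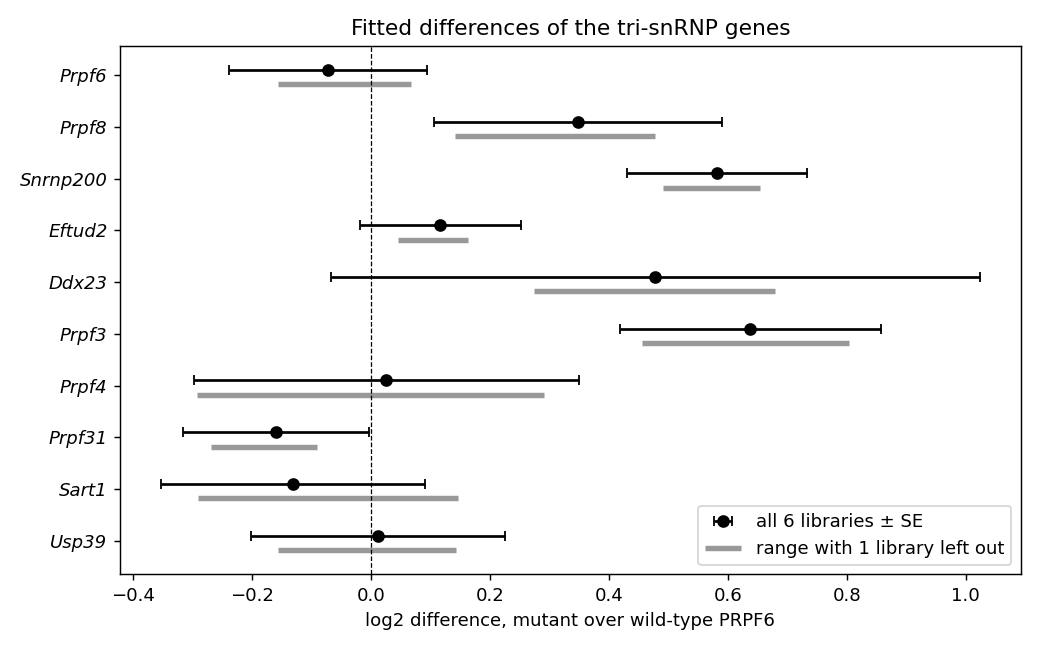
Fitted log2 difference of each gene, mutant over wild-type PRPF6 (x axis), with points and bars for all 6 libraries ± SE and grey bars for the range when 1 library was left out. Snrnp200 at 0.58 and Prpf3 at 0.64 stay above 0 in every such fit, which was bound to hold because their groups do not overlap. Prpf8, Eftud2 and Ddx23 also stay above 0 and Prpf31 below 0, while the grey bars of Prpf6, Prpf4, Sart1 and Usp39 cross 0.

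Summed over the 10 genes, the level was 1435, 1580.2 and 1639.9 CPM in mutant libraries, against 1580.0, 1338 and 1245 CPM in wild-type libraries. The groups overlapped, since wild-type replicate 1 lay level with mutant replicate 2. The libraries also differed in which of them held the extremes. Mutant replicate 3 was the highest library for 5 of the 10 genes, and wild-type replicates 2 and 3 were the lowest for 4 each. Over all tested genes mutant replicate 3 was the highest for 17.8%, and wild-type replicates 2 and 3 were the lowest for 13% and 12.4%.

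To compare levels between genes, CPM was divided by the length of all annotated exons in kilobases. On this scale Usp39 was highest, with a mean over the 6 libraries of 40.8 CPM per kb, followed by Eftud2 at 37.9, Prpf6 at 35.6 and Prpf31 at 32.6 CPM per kb. Snrnp200 averaged 28.0, Sart1 27.4, Prpf8 25.9 and Prpf3 17.4 CPM per kb. These 8 genes stood above 75.5% to 89.9% of the 13720 tested genes with a length. Prpf4, at 10.2 CPM per kb, stood above 63.4%, and Ddx23, at 1.04 CPM per kb, above 20.3%. If the deposited counts cover only part of Ddx23, its value per length and its place are too low. If the Prpf6 counts hold reads from the plasmids, which was not tested, the Prpf6 value is too high for the cells' own gene. Of the 9 pairs of neighbours in this order, 8 had library ranges that overlapped. Library by library, the first 6 steps of the order held in 3 to 5 of 6 libraries, and the steps from Prpf8 to Prpf3, from Prpf3 to Prpf4 and from Prpf4 to Ddx23 in 6 of 6. The ranges were apart only at the step to Ddx23, whose highest library at 1.53 CPM per kb was below the lowest Prpf4 library at 6.15 CPM per kb. By the length of the longest transcript only 3 members, Prpf6, Prpf4 and Ddx23, held their place. Eftud2 then came first at 95.3 CPM per kb, and Ddx23 was still last at 1.90 CPM per kb, above 24.8% of genes.

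**Figure D3:**
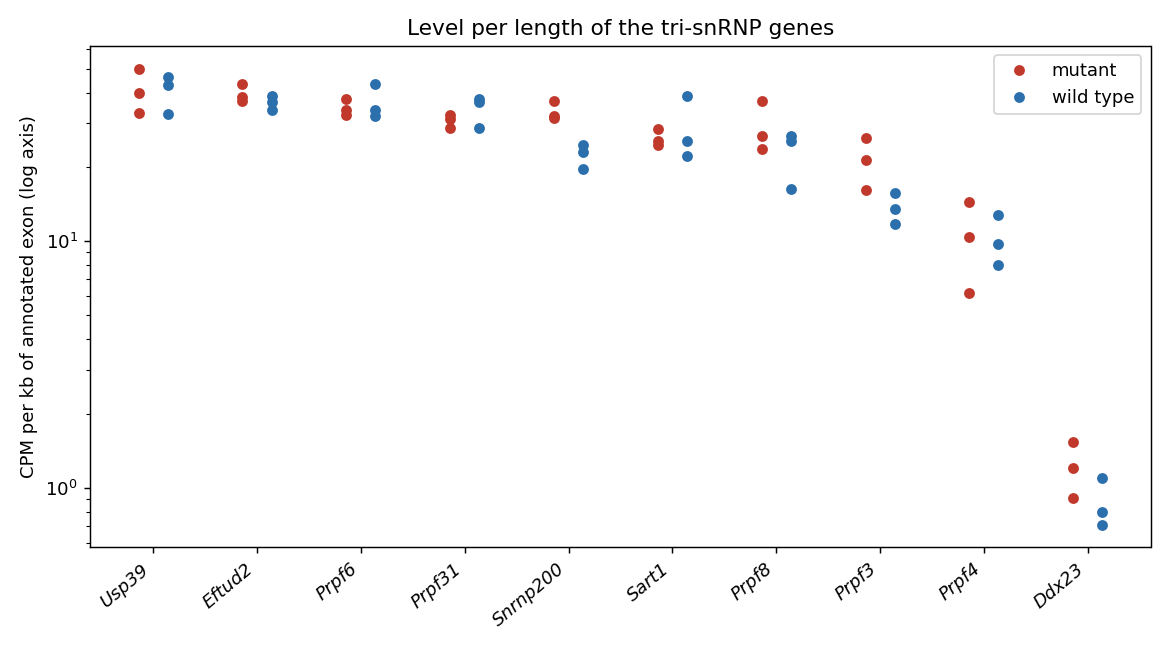
Level per length of the 10 genes in CPM per kb of annotated exon (log y axis), ordered by their mean, with 3 mutant (red, left) and 3 wild-type (blue, right) libraries each. Neighbouring genes overlap from Usp39 at 40.8 to Prpf4 at 10.2 CPM per kb, and Ddx23 at 1.04 CPM per kb lies apart.

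The genes whose profile over the 6 libraries was most like that of Prpf6 were not tri-snRNP genes. Likeness was the root mean square distance between log2 CPM profiles, each centred on its own mean, over 11921 other genes whose mean log2 CPM was 1 or more. The closest were Chmp7 at a distance of 0.053, Papd4 and Aco1 at 0.062 each, and N6amt1 and Lemd3, at 0.062 and 0.063 log2 units. All 5 shared the high value of Prpf6 in wild-type replicate 1, as Chmp7 did with 304 CPM there and 206 to 243 CPM elsewhere. Because these genes were picked by distance over the same libraries, that shared value follows from the choice and is not a separate result. Among the members Sart1 was nearest, at 0.16 log2 units and rank 678, then Eftud2 at 0.18 and Prpf31 at 0.20. Snrnp200, at 0.33 and rank 5540, Prpf3, at 0.44, and Ddx23, at 0.47, were far from the Prpf6 profile. A distance over 6 libraries favours genes that vary as little as Prpf6 does. Whether plasmid reads are part of the Prpf6 profile was not tested.

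Other genes tied to the tri-snRNP are described here by list. A list of 14 further genes, not all of them for proteins of the particle itself, had 5 fitted higher and 9 lower (median log2 difference −0.0095). None of the 14 was at an unadjusted p under 0.05, against 3.38% of all tested genes. Zmat2, which encodes a zinc finger protein, averaged 104 ± 17.8 CPM in mutant and 118 ± 9.55 CPM in wild-type libraries (SD, n = 3 each). Txnl4a, a small U5 protein with a thioredoxin fold, averaged 350.4 ± 62.0 CPM in mutant and 323 ± 26.7 CPM in wild-type libraries (SD, n = 3 each). Mfap1a and Mfap1b are near-identical copies whose split is uncertain.

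The 7 genes of the Sm ring, which encircles U4 and U5, had 1 fitted higher and 6 lower (median −0.011). Snrpb, the Sm B protein, had the lowest unadjusted p of the list and was the 1 gene higher, at 507, 421 and 566 CPM in mutant libraries, against 386, 449 and 383 CPM in wild-type libraries. Its groups overlapped and its log2 difference was 0.29 ± 0.16 (SE; edgeR unadjusted p = 0.096). Snrpg averaged 126 ± 36.7 CPM in mutant and 134 ± 3.15 CPM in wild-type libraries (SD, n = 3 each).

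The 7 genes of the LSm ring, which holds the end of U6, had 6 fitted higher and 1 lower (median 0.026). Lsm4 averaged 195 ± 48.2 CPM in mutant and 176 ± 5.87 CPM in wild-type libraries, and Lsm7, the 1 gene lower, 87.8 ± 16.8 CPM in mutant and 96.8 ± 8.70 CPM in wild-type libraries (SD, n = 3 each). Of 10 assembly factors 8 were fitted higher and 2 lower (median 0.080). Znhit2, a factor of U5 assembly, averaged 33.1 ± 8.35 CPM in mutant and 24.95 ± 6.77 CPM in wild-type libraries. Rpap3, a subunit of the HSP90 co-chaperone R2TP, averaged 61.4 ± 9.96 CPM in mutant and 74.8 ± 23.0 CPM in wild-type libraries (SD, n = 3 each). In these 4 lists no gene passed edgeR's test over all genes, none stood at an unadjusted p under 0.05 and none separated the groups, against 9.14% of all tested genes that did.

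**Figure D4:**
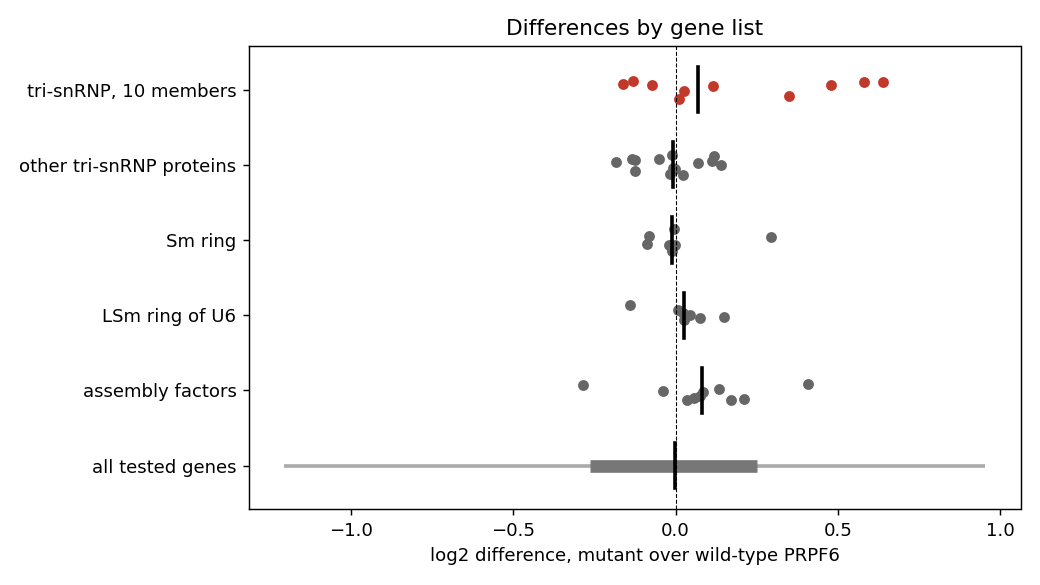
Log2 differences, mutant over wild-type PRPF6 (x axis), of the 10 genes (red) and of 4 lists of other genes tied to the tri-snRNP (grey points). The median of each list is a black line. The lowest line shows all tested genes by their 5th to 95th percentile (thin, −1.21 to 0.95) and their middle part from the 25th to the 75th (thick, −0.26 to 0.25). Most points lie near 0, and of the red points Snrnp200, Prpf3, Ddx23 and Prpf8 lie to the right of the thick bar.

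Counts per gene add up reads from all exons of a gene. They do not show which exons were joined, so nothing here measures splicing or the tri-snRNP as an assembled particle.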

How the data were processed

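The authors deposited unscaled expected counts for each gene, made with RSEM on mm10, per the submitters' processing notes. The sources used here do not give the annotation, aligner, strand setting or versions. Expected counts were rounded, filtered with filterByExpr (14451 of 24041 genes) and scaled with TMM factors (0.972 to 1.02). Groups were compared with edgeR 4.0.16 in R 4.3.3 (two-sided quasi-likelihood test with robust estimation, a term for group alone, Benjamini-Hochberg threshold 0.05). The SE is the log2 difference divided by the root of F. Coordinates and lengths are from GENCODE M21 (GRCm38), matched by symbol.

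Members, lists and tests were chosen with earlier results of these data known. Named genes are all members, the 2 of smallest unadjusted p in each further list tied to the tri-snRNP and the 5 nearest to Prpf6. Beside the sums of marker lists their most abundant gene is named. The other markers named illustrate the lists and were chosen after their values were seen. For the marker lists that gene was Fabp7 (858 and 420 CPM, mutant and wild-type means), Neurog2 (642 and 506), Tubb3 (645 and 695), Dlx2 (171 and 167), Hba-a1 (156 and 2251), Col3a1 (32.4 and 243), Pdgfrb (27.7 and 14.1), C1qb (67.9 and 49.1) and Top2a (389 and 367). Lists not summed in the results gave 1472 to 2204 CPM in mutant and 1215 to 1869 CPM in wild-type libraries for intermediate progenitors (4 of 6 higher), 289.9 to 727 and 139.6 to 846 CPM for interneurons (4 of 6), 5.63 to 61.2 and 5.79 to 135 CPM for endothelium and pericytes (1 of 5 tested), 20.7 to 647 and 80.0 to 245 CPM for microglia (6 of 7), and 1416 to 3576 and 1700.4 to 2770.1 CPM for G2 and M phase (8 of 10). The steps were tested on simulated data. Alternatives were other scalings, filters, tests (DESeq2 1.42.0, limma-voom 3.58.1), a replicate block and leaving out each library.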

Additional observations from a re-analysis of the deposited data

How the results depend on the processing

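No member was called under any setting run, and 0 genes were called over all genes in every edgeR and limma-voom fit. At an unadjusted p under 0.05 stood 489 genes with edgeR and 551 with limma-voom. DESeq2 called 10 genes, all higher and none of them a member, among 3238 with an adjusted p (642 at an unadjusted p under 0.05), and gave none for Ddx23 and Prpf4. The order by level per length kept 3 of 10 places with the longest transcript. With 1 library left out, the log2 difference ran from −0.16 to 0.067 for Prpf6, −0.29 to 0.29 for Prpf4, −0.29 to 0.15 for Sart1 and −0.16 to 0.14 for Usp39, crossing 0 in each, while 6 members kept their sign. Prpf4 also turned to −0.064 with limma-voom, and Usp39 to −0.012 with limma-voom and −0.011 with upper-quartile factors. The cause of these turns was not tested. With the replicate block 307 genes stood at an unadjusted p under 0.05 and 0 were called. Snrnp200 was then at 0.58 and Prpf3 at 0.62, and Prpf4 turned to −0.028. The deposited descriptions number the libraries 1, 4 and 5 in both groups, and the labels do not say what a shared number marks. Deviations from the group means correlated over genes at 0.054, 0.061 and −0.26 between same-numbered libraries, for replicates 1, 2 and 3. Between libraries of unlike number the correlations ran from −0.25 to 0.26, so this check cannot decide whether libraries were paired. The main fit took none as pairs. Amplification without molecular identifiers means that counts are not independent molecules, and Ddx23 rests on the fewest of them.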

Other observations

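The 14 genes of the Sm and LSm rings, small proteins that coat the snRNAs, differed more between mutant libraries than between groups. Mutant replicate 3 was the highest of the 6 libraries for 13 of them and mutant replicate 2 the lowest for 13. Over all tested genes mutant replicate 3 was the highest library for 17.8% and mutant replicate 2 the lowest for 12.7%. Their summed level was 1958, 1528 and 2365 CPM in mutant replicates 1, 2 and 3, against 1856, 1963 and 1757 CPM in the wild-type libraries in the same order. The wild-type libraries thus lay inside the mutant range. Of the 10 tri-snRNP members, mutant replicate 3 was the highest library for 5, and mutant replicate 2 the lowest for 0 and the highest for 2. Of the 14 further genes tied to the tri-snRNP, mutant replicate 3 was the highest for 6 and mutant replicate 2 the lowest for 6. The 10 G2 and M phase markers summed to 1416, 2141 and 3576 CPM in mutant replicates 1, 2 and 3, against 1824, 2770.1 and 1700.4 CPM in the wild-type ones, and their part in the ring genes' spread was not tested.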
